A study of Mus musculus with 12 samples.

Results

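The heart takes most of its fuel from fatty acids, and 35 genes that carry out or control this use were followed in mice whose heart muscle cells were made to lack 2 steroid receptors. The genes were chosen by name. They cover release and uptake of fatty acids, activation, import into mitochondria by carnitine, the 4 reactions of β-oxidation, the handling of double bonds, electron transfer, thioester hydrolysis, uncoupling proteins and 3 transcriptional regulators. A gene was found on the array when a probe carried its symbol or an older one, such as Dci for Eci1 and Peci for Eci2. The array held 51 probes for the 35 genes among 41174 transcript probes. For 34 of the 35 a probe gave a signal well above background on all 12 arrays, and these 34 were tested among 18258 genes in all. Slc27a6, a fatty acid transport protein, was well above background on 1 array and was not tested.

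RNA came from whole hearts of male C57BL/6 mice. CardioGRMRdKO mice carried floxed alleles of the glucocorticoid receptor gene and of the mineralocorticoid receptor gene together with a Cre transgene that the αMHC promoter drives in heart muscle cells. The controls, dflox, were littermates with both floxed genes and without Cre, so receptor loss and the presence of Cre cannot be told apart here. Each genotype was sampled at 1 month and at 2 months of age, with 3 hearts from separate mice in each of the 4 groups. A whole heart also holds fibroblasts, endothelial cells and macrophages, in which this Cre is not expected to act, and the labels do not give the deleted exons.

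In β-oxidation a fatty acid enters the cell through CD36 and transport proteins, is joined to coenzyme A by an acyl-CoA synthetase, crosses the inner mitochondrial membrane as a carnitine ester, and is shortened in repeated rounds to acetyl-CoA. Each round consists of an oxidation by an acyl-CoA dehydrogenase, a hydration, a further oxidation and a thiolysis. The nuclear receptors PPARα and ERRα, with their coactivator PGC-1α, switch on many of these genes in heart muscle after birth. Glucocorticoid and mineralocorticoid receptors are nuclear receptors too, and both bind corticosterone.

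Levels below are log2 intensities relative to the 75th percentile of the same array, so that 0 is that percentile. Differences are log2 differences, tested with limma over all genes with Benjamini-Hochberg adjustment, and a gene is said to have risen or fallen only at an adjusted p under 0.05. Between 63.7% and 71.9% of transcript spots per array were well above background. The probe used for Nr3c1, the glucocorticoid receptor gene, fell in cardioGRMRdKO hearts by 0.92 over both ages (adjusted p = 0.00232), and its 3 dimmer probes had averaged differences from -0.89 to -0.47. At 1 month the probe used had no value in replicate 3 of dflox and in replicate 1 of cardioGRMRdKO. The mineralocorticoid receptor probe was dim in every group, with an averaged difference of -0.20 (adjusted p = 0.807). A probe outside the deleted part need not show the deletion, and which exons were removed is not known here. Fewer cells of a type and less RNA per cell cannot be told apart in whole hearts. At 1 month all dflox arrays lay in outer places of their slides and all cardioGRMRdKO arrays in inner ones. Place and genotype therefore cannot be told apart in any difference at 1 month, and averaged differences include these hearts. At 2 months replicates 2 and 3 of dflox lay in outer places and replicate 1 in an inner one. Of cardioGRMRdKO, replicate 3 lay in an outer place and replicates 1 and 2 in inner ones.

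Some hearts stood apart in their markers, whose mean levels are given over the markers with a value in all 12 hearts. All 9 cardiomyocyte markers were well above background in every heart, and 7 of them entered the mean. It ran from 6.96 to 7.01 in the dflox hearts of each age. In cardioGRMRdKO hearts it ran from 6.72 to 6.89 at 1 month and from 6.53 to 6.99 at 2 months. Of the 9 markers only Ryr2 was called between the genotypes, as lower averaged over the ages (-0.38, adjusted p = 0.0126). The lowest means were 6.72 in replicate 1 of the cardioGRMRdKO hearts of 1 month and 6.53 in replicate 3 of those of 2 months. The other 10 hearts lay between 6.82 and 7.01. 5 atrial markers averaged 3.08 and 3.85 in the same hearts, against 4.16 to 4.47 in the other 10. White fat markers averaged -0.24 in replicate 1 of cardioGRMRdKO at 1 month, and 0.63 and 0.37 in replicates 2 of dflox and of cardioGRMRdKO at 2 months, against 1.87 to 2.96 in the other 9. Airway markers ran from 1.12 to 2.41 in the dflox hearts of 1 month and from -3.61 to -1.77 in the cardioGRMRdKO hearts of that age. At 2 months they were 2.28 to 2.69 in replicate 3 of dflox and in replicates 1 and 3 of cardioGRMRdKO, and -3.66 to -1.54 in the other 3. The list medians, Acaa2 and Hadh are given with and without hearts low in cardiomyocyte, atrial or white fat markers. Ucp2 is given with and without hearts low in white fat markers and those of 2 months high in airway markers. The latter omission leaves 1 cardioGRMRdKO heart of 2 months. Among the hearts of 1 month, leaving out those high in airway markers would remove the whole dflox group. The part of airway tissue at 1 month was therefore not tested.

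Start-site sequences from RefSeq (GRCm38.p6) were found for 29 of the 35 genes, in 32 windows of 250 bases upstream of the start. Acaa2, Cpt1b, Crat, Decr1, Lpl and Slc27a6 had no entry. 5 are printed for genes on which the results turn: the neighbours Ucp2 and Ucp3, then Hadhb, the member with the smallest p for age in the control hearts, and Hadh and Eci1, which were among the 4 members with the smallest p between the genotypes. Each runs from 250 to 31 bases upstream of the annotated start, read 5′ to 3′ on the strand of the gene. Capitals mark a GC box (GGGCGG) or a nuclear receptor half-site (AGGTCA) on either strand.

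Ucp2, chr7:100493108-100493327, plus strand: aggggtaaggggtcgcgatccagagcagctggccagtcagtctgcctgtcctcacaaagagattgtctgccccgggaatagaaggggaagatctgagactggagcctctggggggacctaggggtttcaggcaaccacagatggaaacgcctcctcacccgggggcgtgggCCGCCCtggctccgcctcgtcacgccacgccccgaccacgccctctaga
Ucp3, chr7:100472741-100472960, plus strand: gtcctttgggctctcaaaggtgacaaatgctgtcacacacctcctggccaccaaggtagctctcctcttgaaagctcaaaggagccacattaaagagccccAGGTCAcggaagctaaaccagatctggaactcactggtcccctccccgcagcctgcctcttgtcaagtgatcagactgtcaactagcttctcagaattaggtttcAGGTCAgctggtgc
Hadhb, chr5:30155003-30155222, plus strand: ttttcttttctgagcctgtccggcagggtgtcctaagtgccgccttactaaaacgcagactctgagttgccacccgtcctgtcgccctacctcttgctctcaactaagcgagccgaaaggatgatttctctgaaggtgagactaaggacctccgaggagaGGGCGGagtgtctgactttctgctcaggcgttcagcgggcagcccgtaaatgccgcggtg
Hadh, chr3:131272132-131272351, minus strand: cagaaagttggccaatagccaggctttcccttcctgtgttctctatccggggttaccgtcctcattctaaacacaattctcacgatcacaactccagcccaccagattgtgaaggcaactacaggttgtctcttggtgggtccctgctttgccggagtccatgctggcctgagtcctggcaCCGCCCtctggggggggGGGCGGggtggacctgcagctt
Eci1, chr17:24426433-24426652, plus strand: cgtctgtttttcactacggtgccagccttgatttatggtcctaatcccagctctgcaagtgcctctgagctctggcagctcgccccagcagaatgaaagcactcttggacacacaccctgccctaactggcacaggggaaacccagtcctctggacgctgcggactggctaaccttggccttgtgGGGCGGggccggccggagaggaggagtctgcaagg

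The Ucp3 stretch holds 2 AGGTCA half-sites and no GC box, whereas Ucp2, which follows Ucp3 as the next gene on chromosome 7, has 1 GC box and no half-site. Hadh has 2 GC boxes, Hadhb and Eci1 have 1 each. Hadha and Hadhb are neighbours on chromosome 5 with starts that face away from each other, so that the Hadhb stretch is the region between the genes of both subunits. Searched on both strands over the 32 windows of 250 bases, GGGCGG occurred in 20 (62.5%), against 32.7% of all 32851 windows of that length. The windows of these genes were also richer in G and C, with a median of 59.2% against 52.4%. AGGTCA occurred in 6 windows (18.8%, against 14% of all), those of Acadm, Acadvl, Cd36, Cpt1a, Echs1 and Ucp3. The longer ERR element TCAAGGTCA, which contains AGGTCA, was in 0 windows (0.387% of all). The DR1 element AGGTCANAGGTCA, a pair of half-sites 1 base apart and so also counted as such, was in 0 (0.0335% of all), and the glucocorticoid response element GNACANNNTGTNC was in 0 (0.387% of all). The NRF1 site GCGCATGCGC was in 2 windows, those of Etfdh and Ppara (6.25%, against 0.782% of all), CACGTG in 1, that of Slc27a1 (3.12%, against 6.02%), and CCAAT in 13 (40.6%, against 33.8%). A match is a description of letters and not of a binding site, and no match says only that these letters are not in these windows.

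Averaged over both ages, 3 of the 34 tested fatty acid genes differed between the genotypes. Ucp2, an uncoupling protein of the inner mitochondrial membrane, rose in cardioGRMRdKO hearts, and Acaa2 and Hadh, the last enzymes of the β-oxidation round, fell slightly. Of all genes, 4.49% were called in this comparison, 2.25% as higher and 2.24% as lower. At 2 months 1 member, Ucp2, was called (2.31% of all genes, 1.1% as higher), and at 1 month 0 (0.98% of all genes). Without adjustment, a p under 0.05 was reached at 1 month by 1 higher and 4 lower members (4.43% and 4.96% of all genes), and averaged over the ages by 2 higher and 20 lower members (7.28% and 10.3% of all genes).

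Small differences in 1 direction ran through the rest of the list. At 1 month 32 of 34 differences were below 0, where 50.3% of all genes were, with a median of -0.17 against 0 for all genes. At 2 months 31 of 34 were below 0, where 63% of all genes were, and the median was -0.34 against -0.10. Averaged over the ages 31 were below 0 (61.1% of all genes), with a median of -0.26 against -0.06. At 2 months 18 members were lower and 2 higher at an unadjusted p under 0.05, against 10.1% and 5.48% of all genes. The cardioGRMRdKO hearts lay wholly below the dflox hearts for 9 of the 31 genes with all values at 1 month (9.66% of all genes) and for 17 of 32 at 2 months (11% of all genes). They lay wholly above for 1 member, Ucp2, at each age (8.97% and 6.58% of all genes).

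The size of this shift depended on how arrays were scaled. With quantile normalization the medians were -0.11 at 1 month, -0.15 at 2 months and -0.14 averaged, and the members below 0 numbered 29, 26 and 28 of 34. At 2 months it put Fabp3 (0.12), Acadm (0.16), Etfb (0.11) and Hadha (0.01) above 0 and Lpl at 0. Bright genes as a whole leaned the same way: among the 2518 genes with a level above 3, which include 25 of the 34, the median at 2 months was -0.16 and 77.4% were below 0, while all 25 of the members were below 0 with a median of -0.34. Without the 2 hearts low in cardiomyocyte or atrial markers the medians were -0.15 at 1 month and -0.27 at 2 months. Without the 3 hearts low in white fat markers they were -0.15 and -0.31. The part of cell composition in the shift was not tested beyond this. Within the slides that held both genotypes, the median difference was -0.09 and -0.19 at 1 month and -0.37 and -0.33 at 2 months. Each of these medians sets 1 cardioGRMRdKO heart against 1 or 2 dflox hearts. The value of -0.37 uses the cardioGRMRdKO heart of 2 months low in cardiomyocyte markers.

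**Figure D1:**
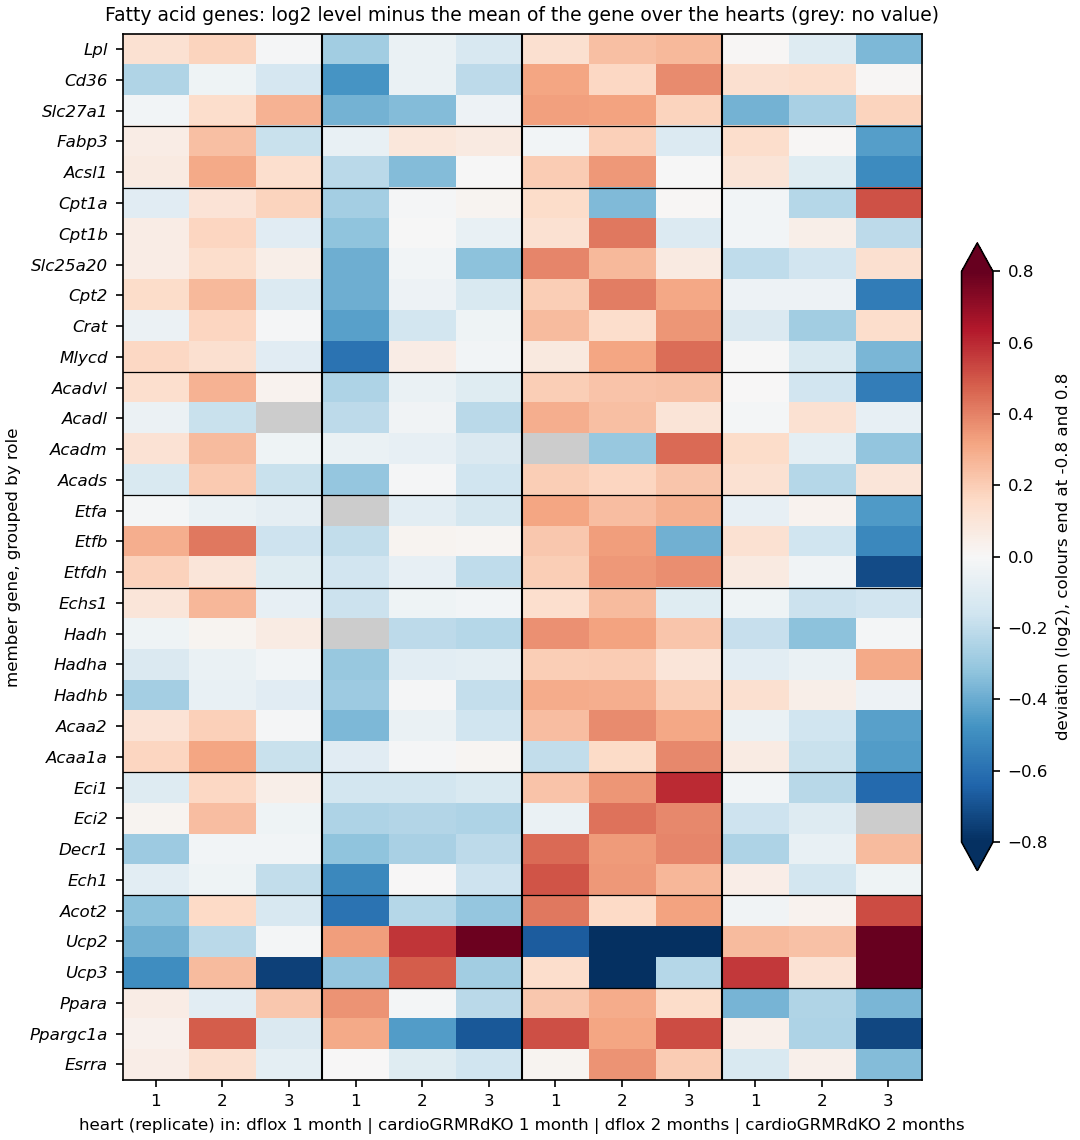
Level of each of the 34 fatty acid genes (rows, grouped by role) in each of the 12 hearts (columns, grouped by genotype and age), as the log2 level minus that gene's mean over the hearts; grey marks a missing value. The 3 dflox hearts of 2 months are the highest columns for most genes, with 4, 4 and 7 members below their own mean, and the row of Ucp2 runs the opposite way.

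Uptake at the capillary and the cell surface was represented by 3 genes, all with differences below 0 at both ages (Lpl at 0 at 2 months with quantile normalization) and none called. Slc27a1 encodes the transport protein FATP1. Its levels were 1.98, 2.14 and 2.28 in dflox hearts and 1.62, 1.65 and 1.96 in cardioGRMRdKO hearts at 1 month, and 2.33, 2.32 and 2.18 against 1.62, 1.74 and 2.18 at 2 months. The groups did not overlap at 1 month and met at 1 value at 2 months, and the averaged difference was -0.41 (SE 0.112, adjusted p = 0.0755). Lipoprotein lipase, which frees fatty acids from circulating triglyceride at the capillary wall, is encoded by Lpl. Its levels were 7.84, 7.90 and 7.71 against 7.44, 7.67 and 7.59 at 1 month and 7.85, 7.96 and 7.98 against 7.73, 7.62 and 7.36 at 2 months. Although these groups did not overlap at either age, the averaged difference of -0.30 (SE 0.0837, adjusted p = 0.0762) was not called, a dimmer Lpl probe gave 0.01 at 1 month, and quantile normalization gave -0.03. Cd36, the main fatty acid translocase, had differences of -0.11 and -0.20 at the 2 ages, and its groups overlapped at 1 month. A slightly dimmer Cd36 probe gave -0.09 and -0.05 and overlapped at both ages.

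Binding and activation were represented by Fabp3 and Acsl1. Fabp3 encodes the fatty acid binding protein of heart muscle. Its levels ran from 7.80 to 8.48 over all hearts, its differences were -0.01 and -0.12, and with quantile normalization 0.19 and 0.12. Acsl1, the acyl-CoA synthetase that supplies cardiac oxidation, had differences of -0.36 and -0.35, of which neither was called. Its dimmer probes gave -0.42 and -0.12, and -0.30 and -0.20.

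The carnitine shuttle and its control comprised 6 genes. None was called, with 6 of 6 differences below 0 at 1 month (median -0.25) and 5 of 6 at 2 months (median -0.32). Cpt2, the inner-membrane carnitine palmitoyltransferase, had levels of 6.42, 6.53 and 6.16 in dflox and 5.88, 6.23 and 6.15 in cardioGRMRdKO hearts at 1 month, and of 6.47, 6.68 and 6.58 against 6.23, 6.23 and 5.71 at 2 months. The Cpt2 groups overlapped at 1 month and were apart at 2 months, where the lowest heart was the one low in cardiomyocyte markers. The averaged Cpt2 difference was -0.40 (SE 0.118, adjusted p = 0.0995), and with quantile normalization -0.30 (adjusted p = 0.0280), which is past the threshold.

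Slc25a20, the carnitine-acylcarnitine translocase, had levels of 3.05, 3.13 and 3.04 against 2.60, 2.97 and 2.66 at 1 month and of 3.38, 3.25 and 3.06 against 2.79, 2.84 and 3.12 at 2 months. These hearts were apart at 1 month and overlapped at 2 months (averaged difference -0.32, SE 0.0961, adjusted p = 0.101). The other 4 genes had smaller or more variable differences. Cpt1b, the muscle form of the rate-limiting outer-membrane enzyme, gave -0.17 and -0.20, and Cpt1a, the form of liver and fetal heart, gave -0.15 and 0.15. Crat, carnitine acetyltransferase, gave -0.25 and -0.33. Mlycd, which removes the CPT1 inhibitor malonyl-CoA, gave -0.25 and -0.45.

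Among the 4 acyl-CoA dehydrogenases, which open each round of oxidation, all differences were below 0 and none was called (medians -0.16 and -0.20), but with quantile normalization Acadl was at 0.05 at 1 month and Acadm at 0.16 at 2 months. Acadvl, for very long chains, had levels of 7.84, 7.98 and 7.73 in dflox and 7.46, 7.65 and 7.61 in cardioGRMRdKO hearts at 1 month. At 2 months the Acadvl levels were 7.90, 7.93 and 7.94 against 7.71, 7.55 and 7.15. The groups were apart at both ages, and the averaged difference was -0.36 (SE 0.101, adjusted p = 0.0772). Acadm, Acadl and Acads, for medium, long and short chains, gave differences between -0.20 and -0.04. Acadm lacked a value in 1 dflox heart of 2 months and Acadl in 1 of 1 month. The electron transfer flavoprotein, which takes electrons from these enzymes to the respiratory chain, is encoded by Etfa and Etfb, and its oxidoreductase by Etfdh. Their differences at 2 months were -0.45, -0.24 (0.11 with quantile normalization) and -0.53, none called, and a dimmer Etfdh probe gave -0.29.

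The 6 genes of hydration, the second oxidation and thiolysis held both members that fell. Acaa2, the mitochondrial thiolase that ends the round, had levels of 7.91, 7.99 and 7.79 in dflox and 7.44, 7.75 and 7.64 in cardioGRMRdKO hearts at 1 month, and of 8.05, 8.18 and 8.11 against 7.75, 7.64 and 7.37 at 2 months. All 6 cardioGRMRdKO hearts were below all dflox hearts of the same age. Acaa2 fell by 0.41 on the log2 scale over both ages (SE 0.0886, adjusted p = 0.0284, 1.33-fold), with differences of -0.29 at 1 month (adjusted p = 0.512) and -0.53 at 2 months (adjusted p = 0.0641) that were not called by themselves.

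Hadh, the hydroxyacyl-CoA dehydrogenase for shorter chains, had levels of 5.41, 5.47 and 5.51 in dflox hearts and 5.24 and 5.22 in the 2 cardioGRMRdKO hearts with a value at 1 month. At 2 months its levels were 5.81, 5.77 and 5.67 against 5.26, 5.12 and 5.43. Again no cardioGRMRdKO heart reached a dflox heart of its age. Hadh fell by 0.36 over both ages (SE 0.0786, adjusted p = 0.0341, 1.28-fold), and the difference at 2 months was -0.48 (adjusted p = 0.0516).

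Both calls are near the threshold. Of the 30 settings tried, Acaa2 was called averaged over the ages in 15 and Hadh in 11. With normexp, another background correction, Acaa2 was called (-0.38, adjusted p = 0.0442) and Hadh was not. With quantile normalization the averaged differences were -0.15 for Acaa2 (adjusted p = 0.248) and -0.27 for Hadh (adjusted p = 0.348). The Acaa2 call ended when replicate 1 or 2 of dflox at 1 month, replicate 1 or 3 of cardioGRMRdKO at 1 month, or replicate 2 or 3 of dflox at 2 months was left out, with differences between -0.45 and -0.35 over all 12 omissions. The Hadh call ended in 10 of the 12, all but those of cardioGRMRdKO replicate 1 at 1 month, where it had no value, and replicate 3 at 2 months, with differences between -0.40 and -0.32. Without the 2 hearts low in cardiomyocyte or atrial markers, Hadh was called (-0.40, adjusted p = 0.0192) and Acaa2 was not (-0.31, adjusted p = 0.0684). Without the 3 hearts low in white fat markers neither was (Hadh -0.32, adjusted p = 0.156; Acaa2 -0.36, adjusted p = 0.189).

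The other 4 genes of these steps were not called. Echs1, the short-chain enoyl-CoA hydratase, gave -0.18 and -0.22. Hadha and Hadhb, the 2 subunits of the trifunctional protein that acts on long chains, had differences of -0.09 and -0.02 in the younger hearts and of -0.11 and -0.22 in the older ones, while a dimmer Hadha probe gave 0.31 and -0.04. Acaa1a, a thiolase of peroxisomes, gave -0.13 and -0.30. Its dimmer probes gave 0.08 and -0.28, and -0.04 and -0.05. The near copy Acaa1b makes the target of the probe used uncertain.

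**Figure D2:**
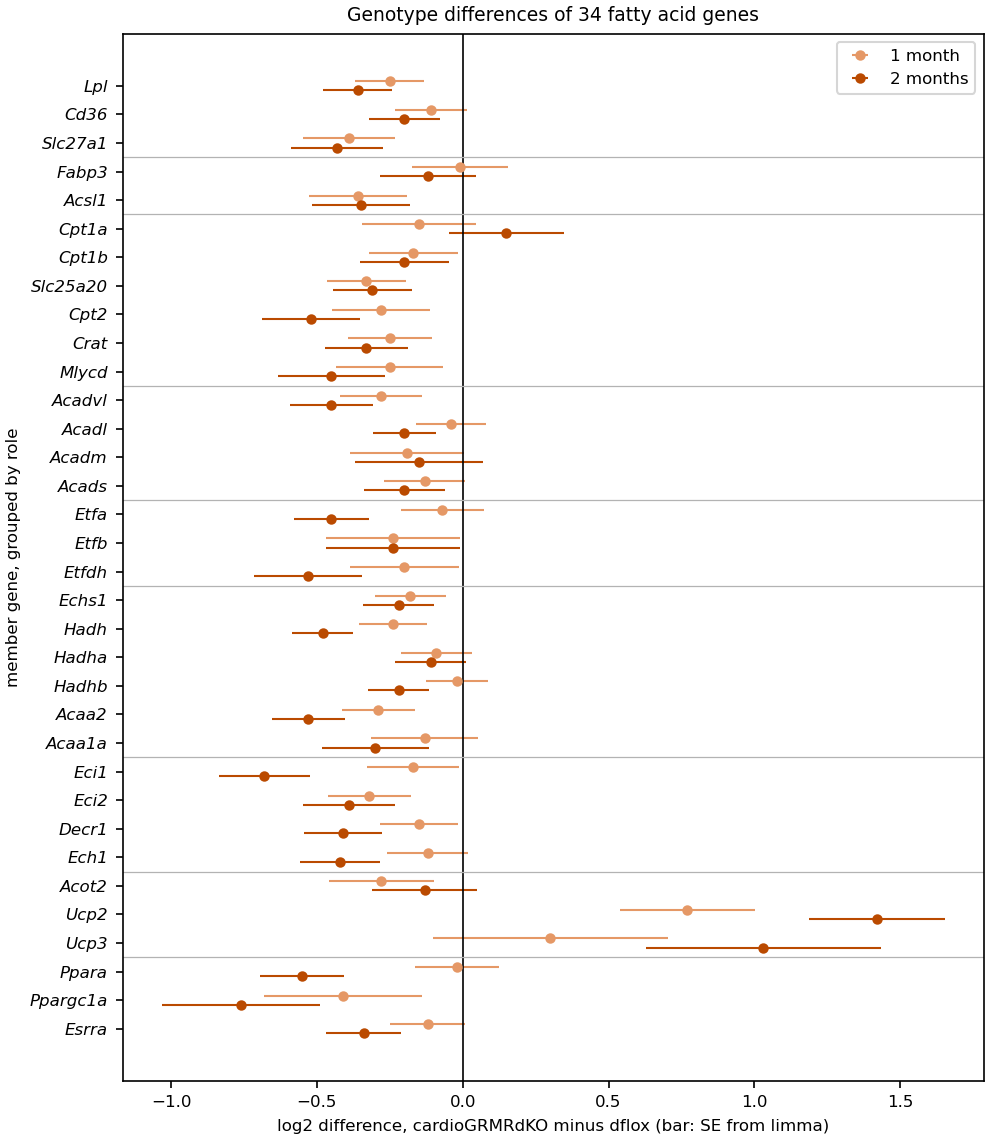
Log2 difference between cardioGRMRdKO and dflox hearts for each of the 34 genes (rows, grouped by role) at 1 month and at 2 months, each from 3 hearts a group (fewer where a value is missing); points are limma estimates and bars are standard errors. Ucp2 and Ucp3 lie to the right of 0, at 1.42 and 1.03 at 2 months, and most other members lie to the left of 0 at both ages; with quantile normalization 26 of the 34 did so at 2 months.

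Unsaturated fatty acids need auxiliary enzymes that move or remove double bonds, and 4 such genes were measured. At 2 months all 4 were lower at an unadjusted p under 0.05 (10.1% of all genes were), but none was called. Their median difference was -0.41, against -0.10 for all genes. Eci1, the mitochondrial enoyl-CoA isomerase, had levels of 6.13, 6.40 and 6.28 against 6.09, 6.09 and 6.11 at 1 month, and of 6.46, 6.59 and 6.83 against 6.21, 6.01 and 5.61 at 2 months. The Eci1 hearts of the 2 genotypes were apart at both ages. Its difference was -0.17 at 1 month (adjusted p = 0.946), -0.68 at 2 months (SE 0.157, adjusted p = 0.0561) and -0.43 averaged (SE 0.111, adjusted p = 0.0632). With slide as a fixed block Eci1 was called as lower at 2 months (-0.71, adjusted p = 0.0465) and averaged (-0.43, adjusted p = 0.0341), and likewise with slide as a random block (adjusted p = 0.0426 and 0.0462). The change of its genotype difference with age, -0.51, was not called (adjusted p = 0.934).

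Eci2, the second isomerase, had levels of 6.33, 6.55 and 6.27 against 6.06, 6.07 and 6.06 at 1 month, and of 6.25, 6.74 and 6.69 against 6.14 and 6.20 at 2 months, where 1 cardioGRMRdKO heart had no value. The groups were apart at both ages. The averaged Eci2 difference was -0.35 (SE 0.106, adjusted p = 0.112). With the place of the array on its slide in the model it was 0.03 (adjusted p = 0.954). For Eci2 that estimate of place rests on 1 array, the inner dflox array of 2 months (6.25, against 6.74 and 6.69 in outer places). The cardioGRMRdKO heart without a value was the only one of its age in an outer place. At 1 month every dflox array lay in an outer place of its slide and every cardioGRMRdKO array in an inner one, so the effects of place and of genotype cannot be told apart for the younger hearts.

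Decr1, the dienoyl-CoA reductase, had levels of 1.34, 1.61 and 1.61 against 1.31, 1.37 and 1.42 at 1 month and of 2.08, 1.97 and 2.02 against 1.38, 1.57 and 1.88 at 2 months. It overlapped at 1 month and was apart at 2 months, with an averaged difference of -0.28 (SE 0.0944, adjusted p = 0.142). A dimmer Decr1 probe gave -0.31 and -0.32 at the 2 ages, and its groups were apart at 1 month and overlapped at 2 months. Ech1, the dienoyl-CoA isomerase, gave -0.12 and -0.42.

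Ucp2 was the member with the largest difference. Its probe lies at chr7:96545541-96545600 on mouse build mm7, and that of Ucp3 at chr7:96532023-96532082. Ucp2 levels in dflox hearts were 0.75, 0.92 and 1.12 at 1 month and 0.47, 0.11 and 0.17 at 2 months. In cardioGRMRdKO hearts they were 1.47, 1.71 and 1.92 at 1 month and 1.39, 1.37 and 2.25 at 2 months. No cardioGRMRdKO heart reached down to a dflox heart of its age, and the low point was the dflox group of 2 months (mean 0.25 ± 0.191, SD, n = 3). The difference was 0.77 at 1 month (SE 0.232, adjusted p = 0.225), 1.42 at 2 months (SE 0.232, adjusted p = 0.0108, 2.68-fold) and 1.10 averaged (SE 0.164, adjusted p = 0.00380, 2.14-fold).

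A second Ucp2 probe gave 0.91, 1.85 and 1.38, with adjusted p of 0.0311 at 2 months and 0.0141 averaged. The averaged call was made in all 12 omissions of a heart, with differences from 0.95 to 1.17, and with quantile normalization (1.12, adjusted p = 0.00488). Each comparison within a slide set 1 cardioGRMRdKO heart against 1 or 2 dflox hearts. Within slides the Ucp2 difference was 0.96 and 0.91 at 1 month. At 2 months it was 1.78, from the cardioGRMRdKO heart low in cardiomyocyte markers, and 1.23. Without the 3 hearts of 2 months with high airway markers it was 1.09 at that age (adjusted p = 0.213) and 0.93 averaged (adjusted p = 0.0315). Without the 3 hearts low in white fat markers it was 1.50 at 2 months (adjusted p = 0.0824) and 1.20 averaged (adjusted p = 0.0264).

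Ucp2 is also known from macrophages, and the mean of the macrophage markers differed in the same direction. All 14 markers were well above background in every group, and none was called between the genotypes. The smallest adjusted p averaged over the ages was 0.067 (Mrc1, 0.34), and Cd163 was below 0 at both ages (-0.06 and -0.13). The mean of the 13 with a value in every heart was 1.40 to 1.65 in dflox and 1.71 to 1.81 in cardioGRMRdKO hearts at 1 month, and 1.36 to 1.51 against 1.54 to 1.71 at 2 months. Their part in the Ucp2 result was not tested.

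Ucp3, the uncoupling protein of muscle and a known PPARα target, was singled out after its values were seen, as the neighbour of Ucp2. Its levels were 0.36, 1.11 and 0.11 against 0.55, 1.34 and 0.58 at 1 month and 1.00, -0.06 and 0.63 against 1.42, 0.97 and 2.27 at 2 months. The groups overlapped at both ages, and the differences of 0.30 (adjusted p = 0.998) and 1.03 (SE 0.403, adjusted p = 0.258) were not called. Ucp1, the uncoupling protein of brown fat, had levels at 2 months of 3.81, 2.15 and 4.92 in dflox and 4.77, 3.04 and 5.35 in cardioGRMRdKO hearts. The hearts with the lowest and the highest Ucp3 at that age were those with the lowest and the highest Ucp1. Of the other brown fat markers this held for Dio2 and not for Elovl3, Cidea, Cox7a1 and Ppargc1a. Ppargc1a was lowest (1.67) in the heart with the highest Ucp3. At 1 month the hearts with the highest Ucp3 and the highest Ucp1 were the same, and those with the lowest were not. The part of fat in the Ucp3 values was not tested. Acot2, a mitochondrial acyl-CoA thioesterase, gave -0.28 and -0.13, and its near-identical copy Acot1 makes the source of this signal uncertain.

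**Figure D3:**
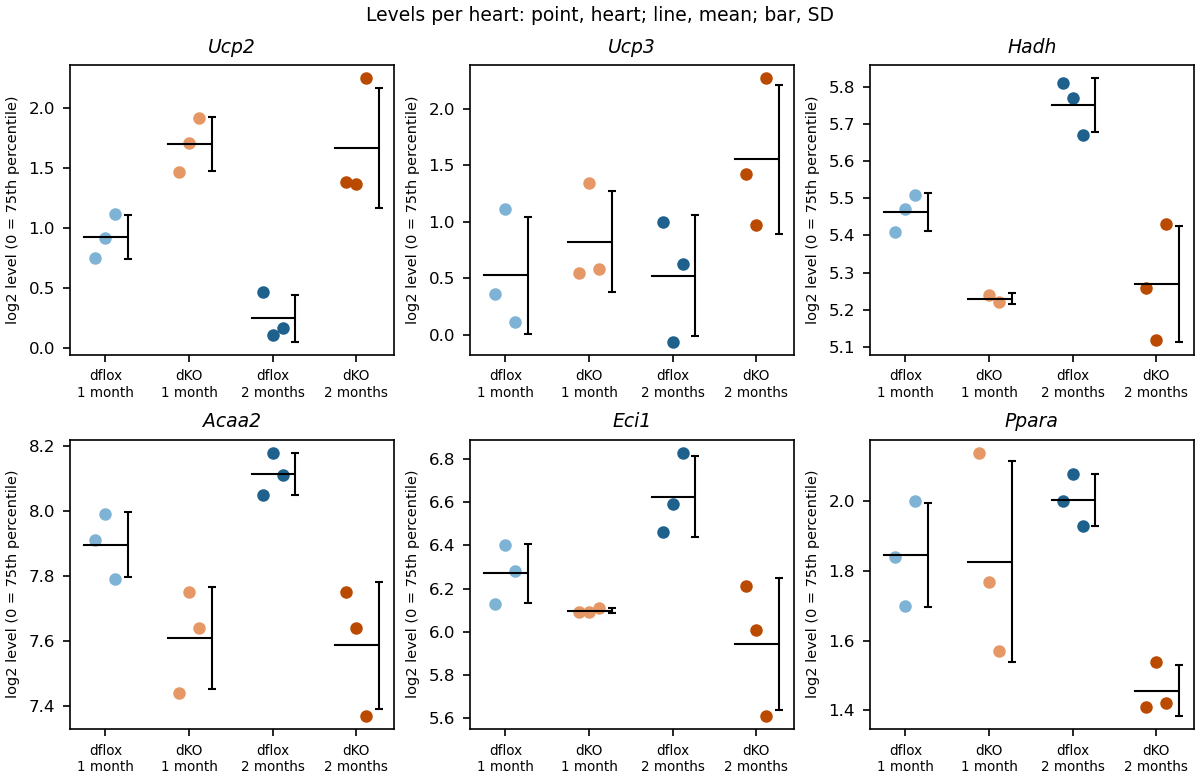
Levels of Ucp2, Ucp3, Hadh, Acaa2, Eci1 and Ppara in each heart by genotype and age (dKO stands for cardioGRMRdKO; vertical axes, log2 level with 0 at the 75th percentile of the array; points are hearts, lines group means and bars SDs). For Ucp2 all cardioGRMRdKO hearts lie above the dflox hearts of their age, 1.37 to 2.25 against 0.11 to 0.47 at 2 months, and for Acaa2 all lie below.

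The 3 regulators were lower at an unadjusted p under 0.05 at 2 months (10.1% of all genes were), and none was called at either age. Their median difference at 2 months was -0.55, against -0.10 for all genes. Ppargc1a encodes the coactivator PGC-1α. Its levels were 2.43, 2.88 and 2.28 in dflox and 2.70, 1.95 and 1.72 in cardioGRMRdKO hearts at 1 month, and 2.91, 2.71 and 2.92 against 2.44, 2.15 and 1.67 at 2 months. The genotypes overlapped at 1 month and were apart at 2 months. The difference at 2 months was -0.76 (adjusted p = 0.223) and the averaged one -0.59 (SE 0.192, adjusted p = 0.138), while a dimmer Ppargc1a probe gave -0.83 at 2 months (adjusted p = 0.0451) and -0.58 averaged (adjusted p = 0.0291).

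Ppara, which encodes PPARα, was singled out after its values were seen. Its levels were 1.84, 1.70 and 2.00 against 2.14, 1.77 and 1.57 at 1 month, and 2.00, 2.08 and 1.93 against 1.41, 1.54 and 1.42 at 2 months. The hearts were intermixed at 1 month and separated at 2 months. The difference was -0.02 at 1 month and -0.55 at 2 months (adjusted p = 0.0945), and the change between the ages, -0.53, was not called (adjusted p = 0.934). Esrra, which encodes ERRα, gave -0.12 and -0.34, and its dimmer probe 0.10 and -0.37. Among the 9 known PPARα target genes outside the 35 that could be tested, 7 were below 0 at 1 month and 3 at 2 months. With limma 0 of them were called at either age, and 1 was higher and 1 lower at an unadjusted p under 0.05 at 2 months.

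Between 1 and 2 months no fatty acid gene passed the test in either genotype, but most had higher levels in the older dflox hearts. Of the 34, 27 did in dflox, where 57.7% of all genes did, with a median of 0.19 against 0.05 (0.553% of all genes were called). Without adjustment, 8 members were higher and 1 lower at a p under 0.05, against 8.14% and 6% of all genes, and 10 of 32 lay wholly above their levels of 1 month (11.4% of all genes). In cardioGRMRdKO hearts 20 of 34 were higher (45.8% of all genes) with a median of 0.02, and 0 members were called by limma (0.378% of all genes, 2 members higher and 1 lower at an unadjusted p under 0.05); quantile normalization gave 29 of 34 with a median of 0.13. The difference between the genotypes in this change, tested directly, was called for 0 of 34 members and 0% of all genes. An unadjusted p under 0.05 occurred for 2 members, Eci1 and Ppara, both with a lower value at 2 months (1.98% of all genes as lower, 1.54% as higher). The age comparison within dflox shares its hearts with the genotype comparison at each age, so that high dflox levels at 2 months enter both.

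The member with the smallest p for age in dflox was Hadhb. Its levels were 6.72, 6.93 and 6.90 at 1 month and 7.29, 7.28 and 7.19 at 2 months in dflox, and 6.70, 6.98 and 6.80 against 7.12, 7.04 and 6.95 in cardioGRMRdKO hearts. All older dflox hearts were above all younger ones, while 1 older cardioGRMRdKO heart was below a younger one. The Hadhb difference was 0.40 in dflox (SE 0.106, adjusted p = 0.119) and 0.21 in cardioGRMRdKO hearts.

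The Decr1 levels given above amount to an age difference of 0.50 in dflox (SE 0.133, adjusted p = 0.122) and 0.24 in cardioGRMRdKO hearts. The dimmer Decr1 probe gave 0.50 and 0.49. Ech1 had levels of 6.20, 6.25 and 6.09 at 1 month and 6.79, 6.63 and 6.55 at 2 months in dflox hearts, and 5.77, 6.29 and 6.12 against 6.34, 6.14 and 6.25 in cardioGRMRdKO hearts. The Ech1 groups were apart with age in dflox, by 0.48 (SE 0.138, adjusted p = 0.155), and overlapped in cardioGRMRdKO, where the difference was 0.18. With Eci1 (0.36, adjusted p = 0.343) and Eci2 (0.18), all 4 auxiliary enzymes were higher in older dflox hearts, with a median of 0.42.

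With the probe used, Cd36 was separated by age in both genotypes. Its levels were 4.93, 5.14 and 5.04 at 1 month and 5.49, 5.34 and 5.55 at 2 months in dflox, and 4.70, 5.12 and 4.96 against 5.30, 5.31 and 5.18 in cardioGRMRdKO hearts. The differences of 0.43 (SE 0.123, adjusted p = 0.157) and 0.34 were not called. The slightly dimmer Cd36 probe gave 0.23 and 0.28, and its dflox hearts of the 2 ages overlapped. Hadh differed by 0.29 with age in dflox (adjusted p = 0.269) and by 0.04 in cardioGRMRdKO hearts. Ucp2 ran the other way in dflox, by -0.68 (adjusted p = 0.230), and by -0.03 in cardioGRMRdKO hearts.

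**Figure D4:**
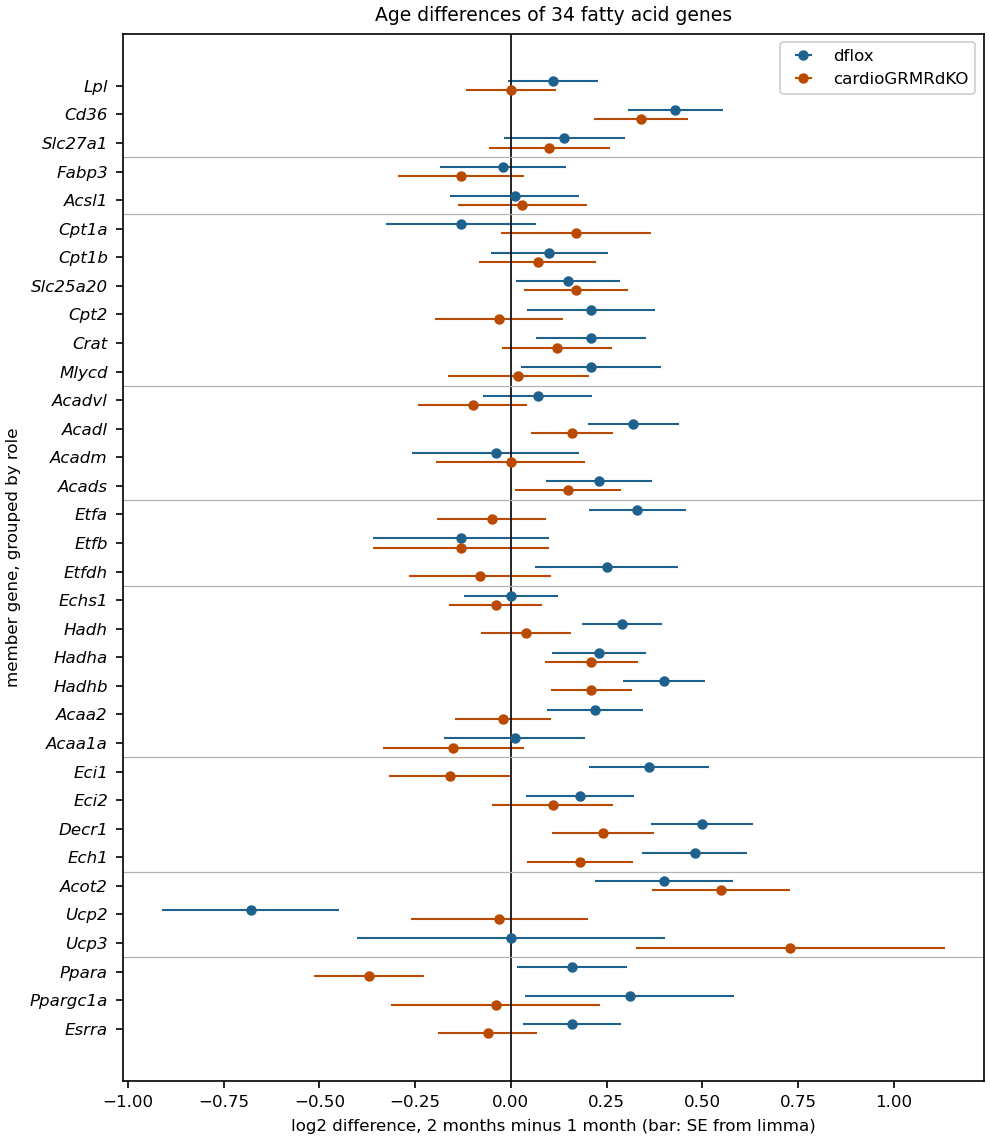
Log2 difference between 2 months and 1 month for each of the 34 genes (rows, grouped by role) in dflox and in cardioGRMRdKO hearts, each from 3 hearts a group (fewer where a value is missing); points are limma estimates and bars are standard errors. Hadhb, Decr1, Ech1 and Cd36 lie between 0.40 and 0.50 in dflox, and Ucp2 at -0.68; with quantile normalization 28 of 34 lie above 0 in dflox and 29 in cardioGRMRdKO hearts, against 27 and 20 here.

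Summed up heart by heart, as the mean deviation of the members from their own means, the dflox hearts of 2 months were the highest. They scored 0.19, 0.18 and 0.17, against -0.01, -0.09 and -0.11 in cardioGRMRdKO hearts of that age. At 1 month the dflox hearts scored -0.02, 0.13 and -0.06 and the cardioGRMRdKO hearts -0.23, -0.06 and -0.12. Relative to the median deviation of all genes on the same array, the scores at 2 months were 0.23, 0.11 and 0.07 in dflox and 0.02, -0.11 and 0.01 in cardioGRMRdKO hearts. On both measures the genotypes were apart at 2 months, and they met or overlapped at 1 month, where the lowest score belonged to the heart with the lowest atrial markers. The heart with the lowest cardiomyocyte markers scored lowest at 2 months on the first measure and not on the second. The other 2 cardioGRMRdKO hearts of that age were below every dflox heart of 2 months on both. Their cardiomyocyte markers were 6.99 and 6.82, against 6.96 to 7.01 in the dflox hearts of 2 months. The part of cell composition in the scores was not tested.

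**Figure D5:**
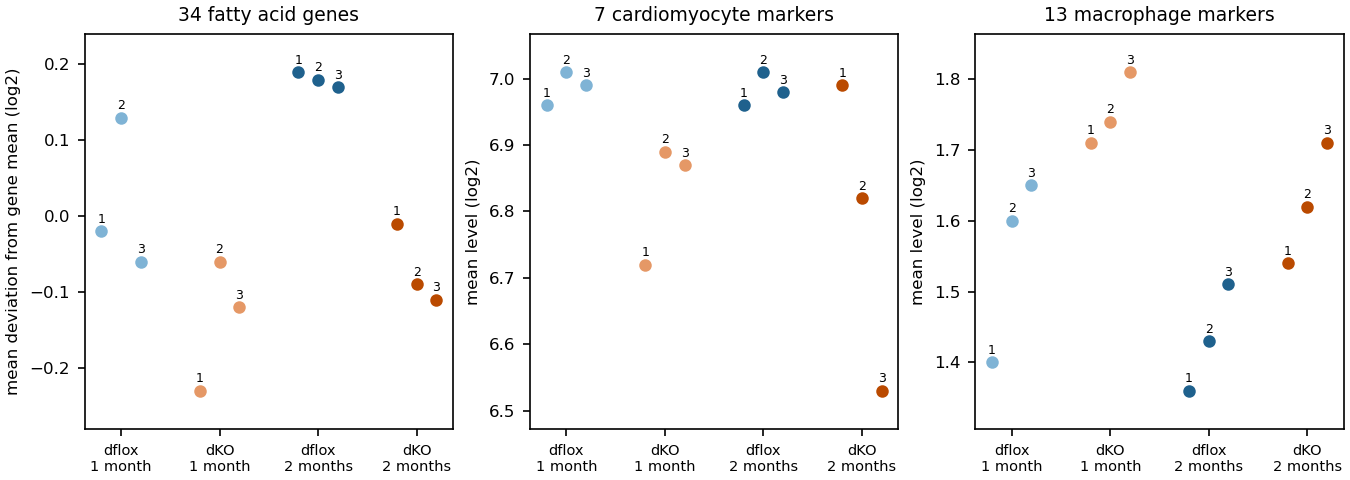
Values per heart by genotype and age: the mean deviation of the fatty acid genes from their own means over the hearts (log2), beside the mean levels of the 7 cardiomyocyte and 13 macrophage markers with a value in every heart (log2 level, 0 at the 75th percentile); digits are replicate numbers and dKO stands for cardioGRMRdKO. The 3 dflox hearts of 2 months score 0.17 to 0.19 and the cardioGRMRdKO hearts of that age -0.11 to -0.01. Cardiomyocyte markers run from 6.96 to 7.01 in dflox hearts of each age. In cardioGRMRdKO hearts they run from 6.72 to 6.89 at 1 month and from 6.53 to 6.99 at 2 months.

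The neighbouring steps of fatty acid metabolism held a few genes with larger differences than any member. Among 15 further transport and activation genes 1 fell: Acsm5, a medium-chain acyl-CoA synthetase of mitochondria. Its levels were -4.00, -2.72 and -4.23 in dflox and -7.07, -6.01 and -6.08 in cardioGRMRdKO hearts at 1 month, and -1.79, -2.04 and -2.06 against -5.15, -5.17 and -4.77 at 2 months. The groups were far apart at both ages (adjusted p = 0.00793 and 0.00264). At 1 month Acsm5 was not well above background in any cardioGRMRdKO heart, so its fold difference at that age is uncertain. With values under the lowest signal above background of their array raised to that signal, it was 4.54-fold higher in dflox. This is not a lower limit, because that signal comes from other probes. At 2 months the Acsm5 difference was -3.07. With the other background correction, normexp, its differences were smaller, -0.97 (adjusted p = 0.0415) and -1.71 (adjusted p = 0.000657). Acsl6, another synthetase, rose with age in both genotypes, by 1.27 in dflox (adjusted p = 0.00340) and 1.26 in cardioGRMRdKO hearts (adjusted p = 0.00276).

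Among 18 further genes of mitochondrial oxidation and thioester hydrolysis, 3 fell in the averaged comparison. Acot1, a cytosolic acyl-CoA thioesterase, fell by 1.45 (adjusted p = 0.00917), with levels of 2.62, 3.16 and 2.67 against 0.77, 1.57 and 2.05 at 1 month and of 3.23 and 2.89 against 1.46, 1.16 and 1.91 at 2 months, where 1 dflox heart had no value. Its groups did not overlap, although signal from its copy Acot2 cannot be told apart with certainty. Hsd17b10, a hydroxyacyl-CoA dehydrogenase, fell by 0.39 (adjusted p = 0.0304), and Acot7, a further thioesterase, by 0.29 (adjusted p = 0.0444). The Acot7 call ended with quantile normalization (-0.23, adjusted p = 0.190) and with the other background correction (-0.31, adjusted p = 0.0807). Of 17 peroxisomal oxidation genes 0 were called by limma in any comparison of the genotypes, with 1 higher and 3 lower at an unadjusted p under 0.05 at 2 months. Their medians were -0.04 at 1 month and -0.14 at 2 months, and 0 and 0.03 with quantile normalization.

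In triglyceride storage and lipolysis, 1 of 13 genes fell averaged over the ages, Plin3, a lipid droplet coat protein, by 0.80 (adjusted p = 0.00449). Among 20 other regulators 1 fell, Lpin1, a coactivator of PPARα and phosphatidate phosphatase, by 0.40 (adjusted p = 0.0263), a call that ended with quantile normalization (-0.33, adjusted p = 0.137) and with the other background correction (-0.32, adjusted p = 0.160). Of 12 genes of fatty acid synthesis 0 were called by limma, with 2 lower at 1 month and 1 in each direction at 2 months at an unadjusted p under 0.05. Of 5 genes of ketone body use, Bdh1, the mitochondrial hydroxybutyrate dehydrogenase, fell by 1.58 at 1 month (adjusted p = 0.00272). Its levels were 0.90, 1.23 and 0.65 against -0.52, -0.82 and -0.61 at 1 month and 1.98, 2.24 and 2.15 against 1.18, 1.74 and 1.50 at 2 months. Bdh1 hearts were apart at both ages, and Bdh1 rose with age in both genotypes, by 1.20 in dflox (adjusted p = 0.0241) and 2.12 in cardioGRMRdKO hearts (adjusted p = 0.00276).

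The respiratory chain and the tricarboxylic acid cycle, shared by all fuels, and glucose use also had median differences below 0 at both ages with the scaling used. Over 44 respiratory chain subunits the median was -0.13 at 1 month and -0.31 at 2 months (-0.03 and -0.09 with quantile normalization), with 2 called as lower in the averaged comparison: Ndufv2 of complex I fell by 0.38 (adjusted p = 0.0336) and Atp5d of ATP synthase by 0.28 (adjusted p = 0.0390). Neither call was made with quantile normalization (adjusted p = 0.0521 and 0.484) or with the other background correction (adjusted p = 0.143 and 0.0904). Of the 44 subunits, 41 were below 0 at 1 month and 42 at 2 months (50.3% and 63% of all genes). With quantile normalization 28 and 32 were. At 2 months the cardioGRMRdKO hearts lay wholly below for 20 of 38 subunits with all values (11% of all genes), against 17 of 32 fatty acid genes. For 16 genes of the tricarboxylic acid cycle the medians were -0.12 and -0.26 (-0.05 and -0.12 with quantile normalization), with 0 called by limma and 4 lower at an unadjusted p under 0.05 at 2 months. For 21 genes of glucose uptake and glycolysis they were -0.03 and -0.17 (0.03 and 0.02 with quantile normalization), and 1 fell, Pfkfb1, a bifunctional enzyme that sets fructose 2,6-bisphosphate, by 1.60 at 1 month (adjusted p = 0.00912) and 1.79 at 2 months (adjusted p = 0.00297). With age in dflox hearts, the medians of these 3 lists were 0.02, 0.04 and 0.05, against 0.19 for the fatty acid genes and 0.05 for all genes. The median was also 0.19 for the further genes of mitochondrial oxidation, 0.18 for ketone body use, 0.17 for peroxisomal oxidation and 0.15 for other regulators.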

How the data were processed

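The deposited scanner files hold, per the file headers, Agilent Feature Extraction 9.5.3.1 output (9.5 per the submitters' processing notes) for 12 one-colour Cy3 arrays on 3 slides. The authors' processed signal is a background-subtracted intensity on a linear scale, and the deposited series matrix repeats that intensity. Probe positions are on build mm7. The number of arrays limits the precision.

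Outlier and control spots were dropped, log2 values were taken, each array's 75th percentile was subtracted, and spots of a probe were averaged. A probe entered the tests if, in 1 group or more, all 3 arrays had it well above background (26985 probes). The brightest passing probe stood for its gene. The 12 arrays entered 1 linear model of 4 group means (limma 3.58.1, R 4.3.3), with Benjamini-Hochberg adjustment over 18258 genes, a threshold of 0.05 and two-sided tests, and was tested on simulated data. An exact permutation test of 3 against 3 cannot go below 0.10. A gene with a missing spot was fitted on its remaining hearts.

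Values per heart are given for members called in any comparison, the 12 with the smallest p averaged over ages and the 6 with the smallest p with age in dflox, and differences for the others; of the other lists, up to 3 called genes are named. Members, lists and tests were chosen with earlier results of these data known. Alternatives covered background correction, normalization, filters, probe choice, slide, place on the slide, replicate number and hearts left out.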

Additional observations from a re-analysis of the deposited data

How the results depend on the processing

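The Ucp2 difference was above 0 in all 30 settings tried and called in 28 averaged over the ages (0.93 to 1.28) and in 25 at 2 months; it was not called averaged when slide 2 (1.20, adjusted p = 0.157) or slide 3 (1.12, adjusted p = 0.0723) was left out. The number of members called at 2 months, 1 as reported, was 3 with probes required above background on all 12 arrays, 3 with the mean over a gene's probes, 4 with a trended robust variance, 2 with slide as a fixed block, 3 with slide as a random block, 0 without slide 1, 2 or 3 in turn, 2 without the hearts low in cardiomyocyte or atrial markers, 0 without the hearts high in airway markers and 0 without those low in white fat markers. Averaged over the ages, 3 as reported, it was 1 without a filter, 5 with a trended robust variance, 1 with place as a covariate, 1 without slide 1, 0 without slide 2, 0 without slide 3 and 1 without the hearts low in white fat markers. Changes of the averaged number by 1 member are not listed. Averaged over the ages, Acaa2 was called in 15 of the 30 settings and Hadh in 11. Leaving out a slide also leaves fewer samples; the cause of the other changes was not tested. Quantile normalization moved the median to -0.15 at 2 months, to -0.14 averaged and to 0.13 with age in cardioGRMRdKO hearts; without slide 1 the last was 0.12. With place on the slide as a covariate, the averaged Eci2 difference turned to 0.03 (adjusted p = 0.954), where 1 dflox array of 2 months set the estimate of place. Over the 12 omissions of 1 heart, the calls ran from 0 to 1 at 1 month, 1 to 2 at 2 months and 1 to 5 averaged. The medians ran from -0.25 to -0.11 at 1 month, -0.34 to -0.27 at 2 months and -0.28 to -0.24 averaged, from -0.17 to -0.08 for the difference between the ages, and from 0.14 to 0.25 (dflox) and -0.01 to 0.10 (cardioGRMRdKO) with age. The 3 omissions by markers were chosen after seeing the data.

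Replicate numbers did not pair the hearts: deviations of same-numbered hearts on different slides correlated between -0.49 and 0.19 (15 pairs). With the replicate block, 2 members were called averaged over the ages, Ucp2 (1.10, adjusted p = 0.00538) and Acaa2 (-0.41, adjusted p = 0.0420), and Hadh was not (adjusted p = 0.101); 1 was called at 2 months and 0 at 1 month.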
